A study of Rattus norvegicus with 38 samples.

Results

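Macrophage and antigen presentation markers were followed in whole-kidney RNA of rats after 7 weeks of treatment. The set holds 7 genes of the 30207 in the expression table, taken by identifier: Ptprc (ENSRNOG00000000655), Cd68 (ENSRNOG00000037563), Cd74 (ENSRNOG00000018735), B2m (ENSRNOG00000017123), C1qa (ENSRNOG00000012807), C1qb (ENSRNOG00000012804) and Lgals3 (ENSRNOG00000010645). All 7 were in the table and all 7 were among the 12599 genes abundant enough to be tested. The table gives identifiers only, and the names are those that came with the definition of the set. Since 0 of the 30207 identifiers could be matched to a symbol, no further marker of kidney or immune cells was available to check the tissue or the set.

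The series models injury of the glomerulus and the tubule with 4 groups. The combination group of 10 rats received anti-Fx1A at 2.0 mL/kg and, each day, L-NAME at 20 mg/kg. Anti-Fx1A alone was given to 10 rats at the higher dose of 2.5 mL/kg, L-NAME alone to 10 rats at 20 mg/kg each day, and vehicle to 8 rats. Anti-Fx1A antiserum is raised against brush border of the proximal tubule and is used to induce Heymann nephritis, and L-NAME inhibits nitric oxide synthase. The labels used here give no strain, sex or age. Animal numbers follow the groups, so that order of handling, if it followed the numbers, and treatment cannot be told apart.

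Each library was read from the 3' ends of transcripts and held between 4120902 and 7728848 reads. Levels are given below as normalised reads, that is reads divided by the size factor of the library, as recovered from the deposited log2 values. Fold changes and tests are on the deposited log2 scale, which is compressed at low counts. In whole-kidney RNA, more cells of a type and more RNA per cell cannot be told apart.

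Macrophages live in the kidney interstitium and are joined by blood monocytes when tubules or glomeruli are injured. They clear debris and immune complexes, make most of the C1q in tissues, and present peptides on MHC molecules. Ptprc encodes CD45, a receptor phosphatase found on all nucleated blood cells. Cd68 encodes a lysosomal membrane protein of macrophages, and Lgals3 encodes galectin-3, a lectin that macrophages and also some tubule cells make. C1qa and C1qb encode chains of C1q, which binds antibody in immune complexes and starts the classical complement pathway. Cd74 encodes the invariant chain, the chaperone of MHC class II, and B2m encodes the light chain of MHC class I, which almost all nucleated cells carry.

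The promoters of 4 of the genes are shown because the genes stand for the leukocyte, complement, class II and class I parts of the set. They are RefSeq sequences on build GRCr8, matched by symbol, and run from 250 bases before to 50 bases after the annotated start. The table had such an entry for 6 of the 7 genes, all but Lgals3. Capitals mark matches, on either strand, to AGGAAGT (the core bound by PU.1, a transcription factor of myeloid cells), the core of the interferon-stimulated response element (GAAA, any 2 bases, GAAA) or CCAAT (the box bound by NF-Y).
Ptprc, chr13:52259697-52259996, minus strand: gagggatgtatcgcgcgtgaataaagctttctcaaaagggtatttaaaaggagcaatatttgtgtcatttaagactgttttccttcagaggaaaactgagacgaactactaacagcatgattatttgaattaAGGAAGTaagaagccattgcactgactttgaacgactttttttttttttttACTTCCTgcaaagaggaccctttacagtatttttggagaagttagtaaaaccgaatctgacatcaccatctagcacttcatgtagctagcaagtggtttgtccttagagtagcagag
C1qb, chr5:154407778-154408077, minus strand: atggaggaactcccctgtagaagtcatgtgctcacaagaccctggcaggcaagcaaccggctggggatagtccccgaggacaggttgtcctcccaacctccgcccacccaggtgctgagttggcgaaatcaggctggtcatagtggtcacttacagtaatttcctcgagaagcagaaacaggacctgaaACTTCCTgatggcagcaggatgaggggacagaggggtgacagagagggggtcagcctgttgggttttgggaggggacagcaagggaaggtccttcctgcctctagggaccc
Cd74, chr18:56526956-56527255, plus strand: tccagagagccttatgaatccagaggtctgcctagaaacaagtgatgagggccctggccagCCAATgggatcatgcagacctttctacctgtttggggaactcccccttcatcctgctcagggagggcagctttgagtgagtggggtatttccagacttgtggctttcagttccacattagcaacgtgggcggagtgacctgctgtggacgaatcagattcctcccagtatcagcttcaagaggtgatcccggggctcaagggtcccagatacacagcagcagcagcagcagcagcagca
B2m, chr3:129549080-129549379, plus strand: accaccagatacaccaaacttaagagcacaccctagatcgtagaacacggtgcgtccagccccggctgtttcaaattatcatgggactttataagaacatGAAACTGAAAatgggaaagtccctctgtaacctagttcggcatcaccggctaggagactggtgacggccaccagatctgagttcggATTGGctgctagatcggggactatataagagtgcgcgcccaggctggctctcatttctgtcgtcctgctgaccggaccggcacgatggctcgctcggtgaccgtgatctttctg
AGGAAGT was found in 2 of the 6 promoters, those of Ptprc and C1qb, and in 8.41% of 33469 rat promoters of the same length. The interferon-stimulated core was found in that of B2m alone, as GAAACTGAAA beginning 150 bases before the start, and in 3.92% of all promoters. CCAAT was found in those of Cd68, Cd74 and B2m and in 37.5% of all. Also searched was TTCNNNGAA, where N is any base, found in that of C1qa alone, which is not shown, and in 8.87% of all. No 2 of these matches overlapped. The motifs were picked with the sequences in view, and a match describes the letters and not binding.

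All 7 genes were higher in the combination than with vehicle. They were called in 7 of 7 cases (limma, Benjamini-Hochberg adjusted p under 0.05 over all genes tested), where 18.4% of all genes tested were called higher. Their median log2 fold change was 0.85, with a range of 0.47 to 1.08, against a median of -0.013 over all genes. On this scale the class II chaperone Cd74 and the leukocyte phosphatase Ptprc had the highest fold changes and Cd68 and B2m the lowest. The order depends on the compressed scale: by voom on recovered reads Ptprc stood at 1.23, C1qa at 1.17 and Cd74 at 1.11, and B2m was lowest at 0.48. Differences between these fold changes were tested only for the ratios given further on.

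**Figure D1:**
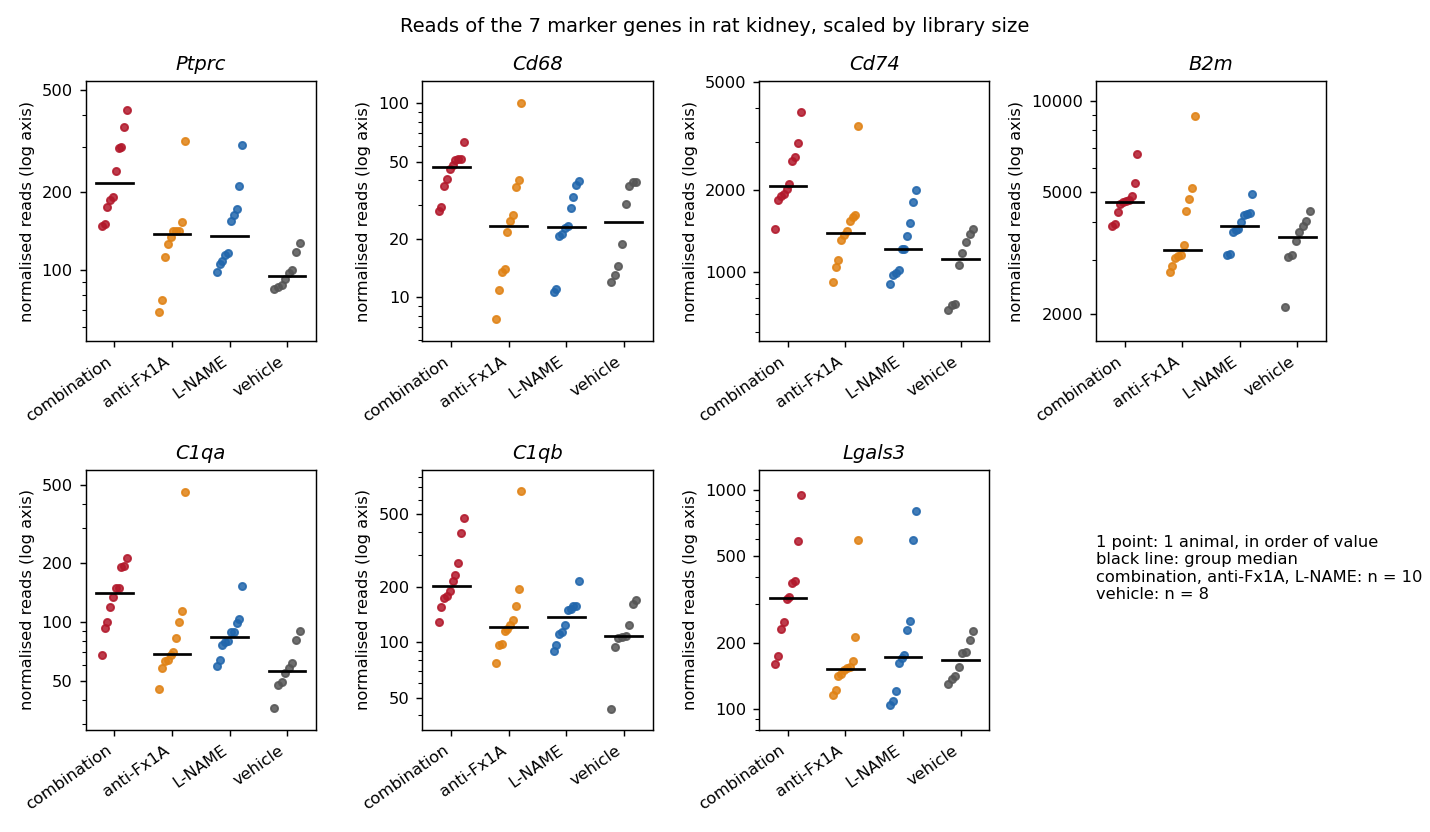
Normalised reads of the 7 genes (log axes) in each animal of the combination, anti-Fx1A, L-NAME (n = 10 each) and vehicle (n = 8) groups, with black lines at the medians. All 10 combination animals lie above all 8 vehicle animals for Ptprc and Cd74, and 1 anti-Fx1A animal lies far above the rest of its group in most panels.

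Ptprc, the marker of all leukocytes, had a lowest, median and highest level of 148, 217 and 415 normalised reads in the combination. The same levels were 68.8, 138 and 317 with anti-Fx1A, 98.5, 136 and 305 with L-NAME, and 84.1, 94.9 and 127 with vehicle. Each combination animal was thus above each vehicle animal, while both single treatments overlapped with vehicle. Ptprc rose by 1.01 log2 units in the combination against vehicle (SE 0.19, limma adjusted p = 7.75e-05). The ratio of mean normalised reads was 2.49. The gene behind the pan-leukocyte phosphatase was 1 of 2 in the set with no overlap between combination and vehicle, the other being Cd74, where 3.18% of all genes tested had every combination animal above every vehicle animal.

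Cd68, the lysosomal protein of macrophages, was the least abundant of the 7 by reads, with 8 to 102 reads per library. Its lowest, median and highest levels were 27.7, 46.8 and 62.7 normalised reads in the combination, 7.72, 23.2 and 99.8 with anti-Fx1A, 10.7, 23.004 and 39.5 with L-NAME, and 12.1, 24.5 and 39.2 with vehicle. The combination lay above the vehicle range in 7 of 10 animals, and the medians of both single treatments lay close to that of vehicle. Cd68 rose by 0.47 log2 units in the combination against vehicle (SE 0.17, limma adjusted p = 0.0298), with a ratio of means of 1.74. On the recovered reads with voom, a model for counts that is not compressed at low levels, the rise was 0.87 (limma-voom adjusted p = 0.0290). The call was lost without vehicle animal 1 (log2 fold change 0.41, limma adjusted p = 0.0600), 4 (0.42, 0.0644), 6 (0.41, 0.0704) or 7 (0.44, 0.0519), or without combination animal 35 (0.43, 0.0542).

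Lgals3 is the galectin of macrophages and some tubule cells. Its lowest, median and highest levels were 161, 321 and 953 normalised reads in the combination, 116, 152 and 589.8 with anti-Fx1A, 104, 173 and 806 with L-NAME, and 129, 167 and 227 with vehicle. High values stood out in single animals of each treated group, and the vehicle range was exceeded by 8 of 10 combination animals, against 1 of 10 with anti-Fx1A and 4 of 10 with L-NAME. Below the vehicle range lay 2 anti-Fx1A and 3 L-NAME animals. Lgals3 rose by 0.85 log2 units in the combination against vehicle (SE 0.30, limma adjusted p = 0.0275). This call was lost without vehicle animal 4 (0.80, adjusted p = 0.0502) and without combination animal 29 (0.69, 0.0639) or 35 (0.76, 0.0543).

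C1qa, the A chain of C1q, had a lowest, median and highest level of 67.9, 140.3 and 212 normalised reads in the combination. With anti-Fx1A they were 45.3, 68.5 and 458, with L-NAME 59.5, 83.7 and 152, and with vehicle 36.3, 56.1 and 89.8. In the combination 9 of 10 animals were above the vehicle range, and the highest value of all 38 animals was in the anti-Fx1A group. C1qa rose by 0.87 log2 units in the combination against vehicle (SE 0.22, limma adjusted p = 0.00184).

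C1qb, the B chain, showed the same order of medians as C1qa in the 4 groups. Its lowest, median and highest levels were 129, 203 and 478 normalised reads in the combination, 77.5, 122 and 673 with anti-Fx1A, 89.6, 137 and 216 with L-NAME, and 43.2, 108 and 171 with vehicle. The combination exceeded the vehicle range in 8 of 10 animals. C1qb rose by 0.85 log2 units against vehicle (SE 0.24, limma adjusted p = 0.00592). In the RefSeq annotation of GRCr8 both genes border on C1qc, the gene of the remaining chain, which was not analysed here.

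Cd74, the invariant chain of MHC class II, had a lowest, median and highest level of 1444, 2065 and 3869 normalised reads in the combination. The levels were 922, 1387 and 3448 with anti-Fx1A, 907, 1212 and 1997 with L-NAME, and 722, 1117 and 1441 with vehicle. The lowest combination animal was just above the highest vehicle animal, so that the groups did not overlap. Cd74 rose by 1.08 log2 units in the combination against vehicle (SE 0.19, limma adjusted p = 4.74e-05), and the ratio of means was 2.17.

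B2m, the light chain of MHC class I, was read most of the 7, with a smaller relative change. Its lowest, median and highest levels were 3870.2, 4661 and 6699 normalised reads in the combination, 2729.6, 3241 and 8933 with anti-Fx1A, 3106, 3889.9 and 4951 with L-NAME, and 2107, 3581 and 4342 with vehicle. The combination was above the vehicle range in 7 of 10 animals, and the anti-Fx1A median was the lowest of the 4 groups. B2m rose by 0.47 log2 units in the combination against vehicle (SE 0.16, limma adjusted p = 0.0187). Vehicle animal 1 had the lowest value, and without it the rise was 0.37 and the call was lost (adjusted p = 0.0551).

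Across the set, 7 of 10 combination animals had all 7 genes above the vehicle range, against 1 of 10 with anti-Fx1A and 0 of 10 with L-NAME. None of the 7 genes was above that range in 3 anti-Fx1A and 5 L-NAME animals. Combination animal 36 had the fewest in its group, with 2 genes above the vehicle range. Combination animal 35 was the highest of its group for 5 of the 7.

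**Figure D2:**
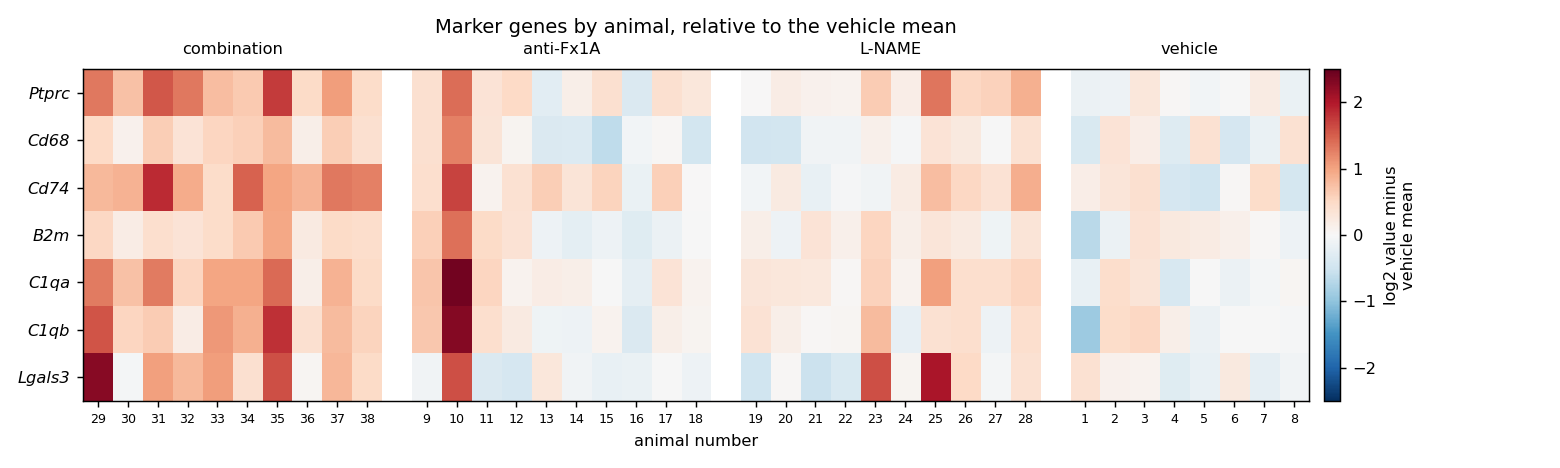
Log2 value of each gene (rows) in each animal (columns) minus the mean of the vehicle animals, with red for higher and blue for lower. Combination animals are red in most rows, anti-Fx1A animal 10 is red in all rows, and L-NAME animals 23 and 25 are reddest for Lgals3.

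Anti-Fx1A alone was compared with vehicle for the effect of the antiserum by itself. None of the 7 genes was called, where 0.929% of all genes tested were called higher (limma). An unadjusted p under 0.05 was reached by 1 of the 7, Cd74, and by 1837 of all 12599 genes in either direction. The voom fit called 0 of the 7 as well. All 7 log2 fold changes were above 0, between 0.02 and 0.45, but that of Cd68 was -0.01 after quantile normalisation and -0.08 by voom. With array weights, which give noisier libraries less weight, Cd68 stood at -0.21, B2m at -0.096 and Lgals3 at -0.005. The median of the 7 was 0.33, against 0.001 over all genes. That of Cd74 was 0.45 (95% interval 0.060 to 0.84, limma adjusted p = 0.255), and those of Ptprc and C1qa were 0.33 (-0.052 to 0.70) and 0.42 (-0.014 to 0.86). For Cd68 the interval ran from -0.32 to 0.37 and for Lgals3 from -0.57 to 0.66.

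The anti-Fx1A libraries fell into separate sets by their make-up. Animals 9 to 12 had 4434855 to 5228067 reads, with 18.2% to 25.7% of them in the 10 most abundant genes, and animals 13 to 18 had 6454754 to 7119831 reads, with 30.1% to 38.4%. The levels of 3 members did not overlap along that line. The share of all genes that separated in the same way was not counted, so it cannot be told whether these genes stand out from the rest. B2m lay between 4342 and 8933 normalised reads in animals 9 to 12 and between 2729.6 and 3371 in animals 13 to 18. C1qb lay at 133 to 673 and 77.5 to 125 in the same animals, and Cd68 at 26.4 to 99.8 and 7.72 to 24.7. The part that library make-up had in these values was not tested. Without animals 9 to 12, a fit added after the data were seen, the log2 fold changes of anti-Fx1A against vehicle were -0.16 for B2m, -0.049 for C1qb, -0.30 for Cd68 and -0.051 for Lgals3. Those of Ptprc, Cd74 and C1qa were 0.10, 0.32 and 0.088, and none of the 7 was called (lowest limma adjusted p 0.266).

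Within this group, animal 10 had the highest level of the group for all 7 genes and the highest of all 38 animals for Cd68, B2m, C1qa and C1qb. Its C1qa level was 458 normalised reads, where the median of the other 9 animals was 67.3 and their highest value 113. Its C1qb level was 673, against a median of 119 and a highest value of 195 in those animals. Its B2m level was 8933, against a median of 3109.9 and a highest value of 5173. Its share of reads in the 10 most abundant genes, 18.2%, was the lowest of all 38 libraries. Without animal 10 the log2 fold changes against vehicle were 0.20 for C1qa, 0.11 for C1qb, 0.21 for Ptprc, 0.31 for Cd74 and 0.054 for B2m. Those of Cd68 and Lgals3 were then -0.11 and -0.13, and none of the 7 was called (lowest limma adjusted p 0.464). Without animals 1, 10 and 25 together, Cd68, B2m, C1qb and Lgals3 were at -0.17, -0.043, -0.016 and -0.077, none of them called.

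L-NAME alone was compared with vehicle for the effect of nitric oxide synthase inhibition by itself. Again none of the 7 genes was called, where 7.91% of all genes tested were called higher (limma). An unadjusted p under 0.05 was reached by 1 of the 7, Ptprc, and by 3622 of all 12599 genes in either direction. The voom fit called 0 of the 7. The log2 fold change was above 0 for 6 of the 7, all but Cd68, which was at 0.003 when libraries were centred on their medians. The median was 0.26, against -0.013 over all genes. Ptprc stood at 0.45 (95% interval 0.071 to 0.83, limma adjusted p = 0.101) and C1qa at 0.39 (-0.045 to 0.83, adjusted p = 0.230). In a fit of only the L-NAME and vehicle animals both were called, at limma adjusted p = 0.0478 and 0.0416. Calls over all genes in that smaller fit are not given here, so this does not set both genes apart from the rest. Cd74 stood at 0.26 (-0.13 to 0.66) and Cd68 at -0.007 (-0.35 to 0.34).

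The single treatments were also set against each other. Of the 7 genes, 0 were called between anti-Fx1A and L-NAME (limma) and voom called 0, where 0.246% of all genes were called higher with anti-Fx1A. An unadjusted p under 0.05 was reached by 0 of the 7 and by 1389 of all 12599 genes in either direction. The log2 fold changes of anti-Fx1A against L-NAME lay between -0.27 (Lgals3, 95% interval -0.85 to 0.31) and 0.19 (Cd74, -0.18 to 0.56). In the order of group means on the log2 scale, the combination came first for each of the 7 genes. None of the 7 was called between the single treatments or between either of them and vehicle.

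Setting the combination against anti-Fx1A by itself asks what L-NAME added to the antiserum, which was given at a lower dose in the combination. Ptprc, Cd68, Cd74 and Lgals3 were higher in the combination, that is 4 of 7, where 9.49% of all genes tested were called higher (limma adjusted p under 0.05). The log2 fold change was 0.68 for Ptprc (SE 0.18, limma adjusted p = 0.00779), 0.63 for Cd74 (SE 0.18, 0.0153), 0.80 for Lgals3 (SE 0.29, 0.0449) and 0.44 for Cd68 (SE 0.16, 0.0475). By voom the rise of Cd68 was 0.95 (adjusted p = 0.0212). C1qa, C1qb and B2m had log2 fold changes of 0.45, 0.52 and 0.28 and were not called (adjusted p = 0.111, 0.0995 and 0.174). Without anti-Fx1A animal 10 all 7 genes were called, with 0.67 for C1qa (adjusted p = 0.000925), 0.74 for C1qb (0.00307) and 0.42 for B2m (0.0144). That fit called 2816 of all 12599 genes in either direction, beside 1196 higher and 1232 lower with all animals. Without animals 9 to 12, 6 of 7 were called, among them C1qa at 0.79 (adjusted p = 0.000685), C1qb at 0.90 (0.00190) and B2m at 0.63 (0.000553), while Lgals3 stood at 0.90 (0.0504). The calls over all genes in that fit are not given here. The calls of Cd68 and Lgals3 were close to the threshold and were lost in 22 and 14 of the 38 fits that left out 1 animal, with adjusted p of up to 0.0925 and 0.0989.

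Setting the combination against L-NAME by itself asks what the antiserum added. Cd74 was the single gene of the 7 that was called, where 0.833% of all genes tested were called higher (limma adjusted p under 0.05). It was higher by 0.82 log2 units (SE 0.18, limma adjusted p = 0.0183), with levels that overlapped between 1444 and 1997 normalised reads. The rise of Cd74 was among the largest 0.214% of all genes in this comparison. By the same measure C1qb stood at 0.556%, Ptprc at 0.849%, Lgals3 at 1.02%, C1qa at 1.34%, Cd68 at 1.44% and B2m at 5.98%. All 7 log2 fold changes were above 0. An unadjusted p under 0.05 (limma) was reached by 5 of the 7 and by 1968 of all 12599 genes in either direction. C1qb stood at 0.62 (95% interval 0.16 to 1.09, adjusted p = 0.167), Ptprc at 0.56 (0.20 to 0.92, adjusted p = 0.100), C1qa at 0.48 (0.068 to 0.89, adjusted p = 0.238) and Cd68 at 0.47 (0.15 to 0.80, adjusted p = 0.132). Lgals3 and B2m stood at 0.53 (-0.050 to 1.11) and 0.28 (-0.025 to 0.58). Without L-NAME animal 25, Ptprc was called as well (0.66, adjusted p = 0.0198). Without anti-Fx1A animal 10, which affects this comparison only through the shared estimate of spread, Ptprc (adjusted p = 0.0438), Cd68 (0.0412), C1qa (0.0446) and C1qb (0.0397) were called as well. The same 4 genes joined Cd74 without animals 9 to 12, at adjusted p of 0.0285 to 0.0495. When animals 1, 10 and 25 (1 each of vehicle, anti-Fx1A and L-NAME) were left out together, 6 of the 7 were called, all but B2m. These 3 libraries were known from earlier results to be the noisiest. Calls over all genes rose as well, to 640 without animal 25 and 334 without animal 10 in either direction. With all animals they were 105 higher and 46 lower, and those of the other fits are given further on.

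**Figure D3:**
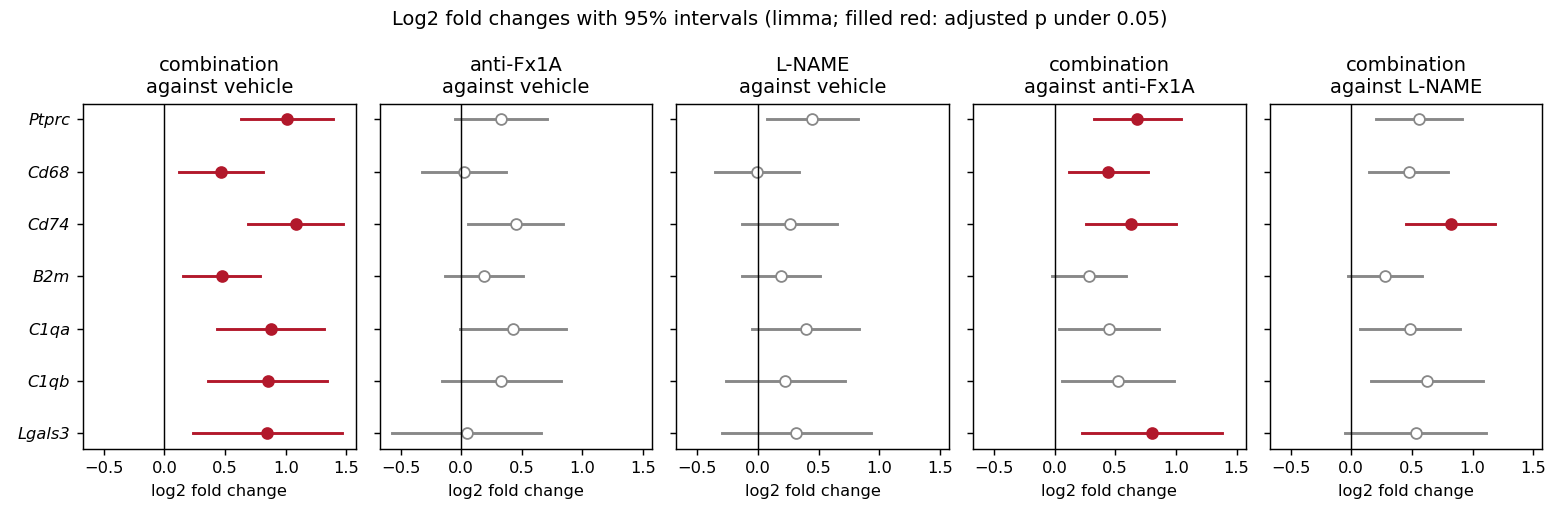
Log2 fold changes (points) with 95% intervals (lines) of the 7 genes in 5 comparisons, filled red where the limma adjusted p was under 0.05. All 7 are red for the combination against vehicle, 0 for either single treatment against vehicle, 4 for the combination against anti-Fx1A and Cd74 alone for the combination against L-NAME.

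Whether the treatments together differed from the sum of the single ones was tested as an interaction. None of the 7 genes was called, 0 had an unadjusted p under 0.05 and voom called 0, where 0% of all genes tested were called higher (limma). Of all 12599 genes 1102 had an unadjusted p under 0.05. The departures from the sum were all above 0, although that of C1qa went down to -0.015 when 1 animal was left out. They ran from 0.057 for C1qa (95% interval -0.54 to 0.66) to 0.49 for Lgals3 (-0.36 to 1.33), with 0.45 for Cd68 (-0.024 to 0.92, adjusted p = 0.590, and 0.78 with adjusted p = 0.0590 without animals 9 to 12) and 0.37 for Cd74 (-0.17 to 0.91). These intervals are wide beside the fold changes themselves, and the lower dose of anti-Fx1A in the combination enters them.

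Ratios within an animal, which depend little on library scaling except at low counts, were used to ask whether genes of the set changed unequally. In 15 such comparisons with vehicle none passed after adjustment (two-sided exact permutation tests). The log2 ratio of B2m to Ptprc averaged 4.13 ± 0.39 in the combination and 4.67 ± 0.26 with vehicle (SD, n = 10 and 8), a difference of -0.54 that 9 of 10 animals shared (exact permutation p = 0.00530, adjusted p = 0.0532). On recovered reads this difference was -0.76 and passed (adjusted exact permutation p = 0.0178). The log2 ratio of Cd68 to Ptprc was lower by 0.54 in the combination (10 of 10 animals, adjusted exact permutation p = 0.0532), but Cd68 lies where the deposited scale is compressed. On recovered reads that difference was -0.36 (adjusted exact permutation p = 0.406). The ratio of Cd74 to Ptprc differed by 0.075 (adjusted exact permutation p = 0.790), or by -0.12 on recovered reads (adjusted exact permutation p = 0.668), and that of C1qa to C1qb by 0.023 (adjusted exact permutation p = 0.889).

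Levels of most pairs of the genes correlated from animal to animal when the groups were pooled. Over 38 animals, with values centred on the group means, 19 of 21 pairs correlated (permutation within groups with 100000 resamples, adjusted over 21 pairs), with r from 0.33 to 0.85. Rank correlation passed for 17 of the pairs. The share of all gene pairs that would pass was not counted, so these counts do not set the 7 genes apart. Ranked by r among 12598 genes, C1qa was 5 for Cd68, while Lgals3, which passed with B2m, was 1993 for B2m. Taken group by group, with no test, the median r of the 21 pairs was 0.64 in the combination, 0.84 with anti-Fx1A and 0.59 with L-NAME, against 0.20 with vehicle. Below 0 lay 2 pairs in the combination, 0 with anti-Fx1A and 1 with L-NAME, against 7 with vehicle. In the combination these were Cd74 with C1qb (-0.21) and with Lgals3 (-0.13), and the lowest with vehicle was B2m with Lgals3 (-0.57). The anti-Fx1A median and count include animal 10, which was the highest of its group for all 7 genes. The r values within that group were not taken without it, so they do not show how closely the other animals varied together. The closest pairs were B2m with C1qb (r = 0.850, rho = 0.754) and C1qa with C1qb (r = 0.850, rho = 0.756), each at an adjusted permutation p of 4.2e-05, and Cd68 with C1qa (r = 0.794, rho = 0.747, adjusted permutation p of 4.2e-05). These p-values rest on the smallest raw value that the resamples allow, 1e-05. The 2 animals farthest from the median were then left out, among them anti-Fx1A animal 10 in each pair. Without them r was 0.72, 0.75 and 0.65 for these pairs, and 15 of 21 pairs still passed. The values were not centred again, so the animals left out still entered these r values through the group means.

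Cd74 stood in 5 of the 6 pairs that did not pass without those animals. Its r with B2m was 0.33 over all animals (rho = 0.074, adjusted permutation p = 0.0853) and 0.035 without the 2 farthest. Its r with C1qb was 0.37 (rho = 0.171, adjusted permutation p = 0.0558) and 0.10 without them. With Ptprc it was 0.57 (rho = 0.428, adjusted permutation p = 0.00124) and 0.38 without them (adjusted permutation p = 0.0367). Cd74 with Cd68, C1qa and Lgals3, and B2m with Lgals3, passed over all animals but not without the 2 farthest. Without them the adjusted permutation p was 0.186, 0.0597, 0.254 and 0.0539, so 2 of these pairs stood close to the threshold. By rank over all animals, Cd74 passed with C1qa (rho = 0.378, adjusted permutation p = 0.0276) and Lgals3 (0.346, 0.0450). Cd74 with Cd68 and B2m with Lgals3 did not pass by rank (adjusted permutation p = 0.1575 and 0.2716).

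**Figure D4:**
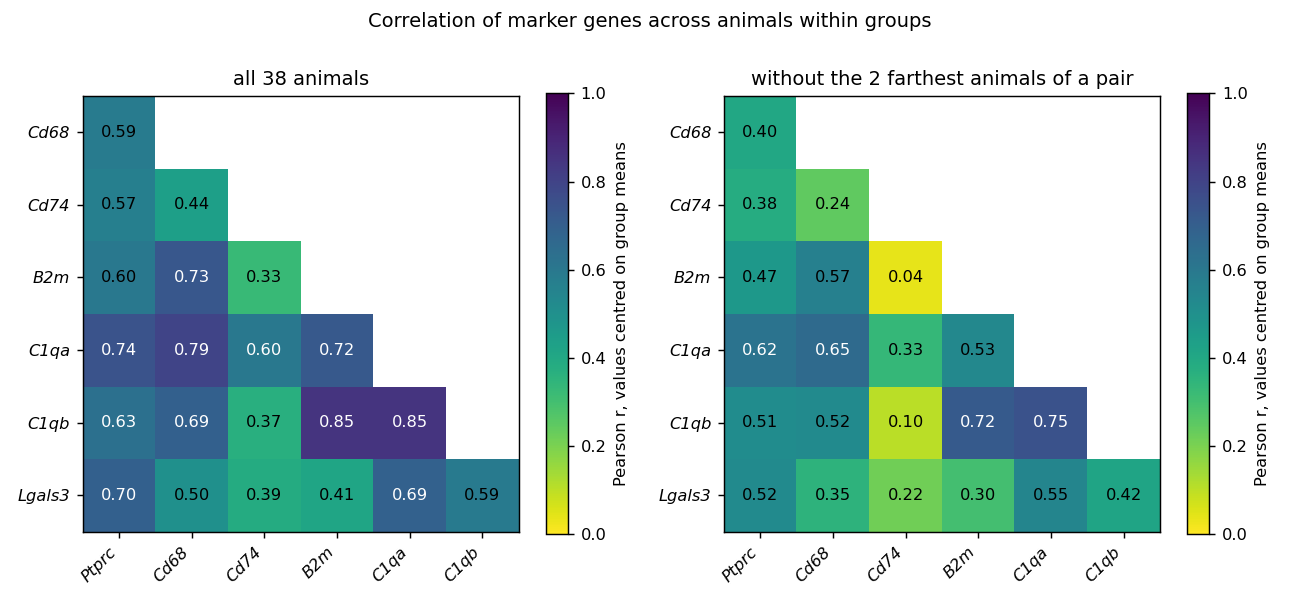
Pearson r between the 7 genes across animals, with values centred on group means, over all 38 animals (left) and without the 2 animals farthest from the median of the gene on the x axis (right). Group means in both panels were taken over all 38 animals, so the animals left out still enter the right panel through them. In the right panel r is lowest for Cd74 with B2m (0.035) and with C1qb (0.10), while C1qa with C1qb keeps 0.75.

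The genes whose centred values were most like those of the set were sought among all genes tested. The 2 closest to each of the 7 made 14 genes, with r from 0.78 to 0.93 over 38 animals. Of these 14, 11 were higher in the combination than with vehicle, beside the 18.4% of all genes. The closest to Cd74 was ENSRNOG00000033215 (r = 0.87), which rose by 1.59 log2 units in the combination against vehicle (limma adjusted p = 1.38e-07). The closest to Lgals3 was ENSRNOG00000001030 (r = 0.93), which rose by 1.01 (adjusted p = 0.0176). Above r = 0.8 lay 122 genes for Lgals3, 38 for C1qa, 33 for C1qb, 30 for Ptprc, 28 for B2m, 4 for Cd68 and 1 for Cd74. These r values were chosen as the highest and carry no test. For Cd68, C1qa ranked 5 of 12598 genes by likeness, and for C1qa and B2m, C1qb ranked 7. These were the closest ranks among the members. The closest member ranked 104 for Ptprc, 82 for Cd74 and 381 for Lgals3, and the farthest rank was 2803, that of Cd74 for B2m.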

How the data were processed

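Per the labels' protocols, 500 ng of RNA from each of 38 rat kidneys went into QuantSeq 3' FWD libraries. Salmon 1.4.0, DESeq2 and edgeR 3.40.2 are listed in the submitters' processing notes without their roles. The genome build is not given in the sources used here. Values in the deposited table are on a log2 scale after variance stabilisation by the authors, which its name and its values show, and they carry a scaling for library size. Columns of another series numbered 0, and 2 rows that name no gene were left out. The lowest value, 4.31634, is a count of 0. Inverting the stabilising curve from it gave whole reads for 100% of values up to 10000 reads (within 0.05 of a read). No 2 libraries were identical, with a lowest chi-square per degree of freedom of 4.26 over 703 pairs. The libraries had 4120902 to 7728848 reads.

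Tests used limma 3.58.1 in R 4.3.3 on the deposited log2 values, over the 12599 genes whose mean exceeded the lowest value by 1 log2 unit or more. The means of all 4 groups were fitted, with a trend and robust estimation, Benjamini-Hochberg adjustment over all genes tested and a threshold of 0.05. The fit and the permutation test were tested on simulated data. Ratios and correlations were tested by permutation in Python 3.11.15 with numpy 2.4.6. Labels do not say whether animals shared a litter or cage. The members, lists and tests were chosen with earlier results of these data known. The fixed rule named the 7 genes, genes of further marker lists and the 2 genes most like each member. The lists were not run, because 0 identifiers could be matched to symbols, and for the same reason only 2 of the 14 like genes are named, a choice made after their values were seen.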

Additional observations from a re-analysis of the deposited data

Results flagged for a closer look

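Of 28 sets of a gene and a group, 6 held an animal whose gap to its nearest neighbour took an unusually large share of the range of the group on the log2 scale, by Dixon's limits. About 1 in 20 such sets is expected to do so by chance, and the genes are not independent. Anti-Fx1A animal 10 was the highest of its group in 5 of them. Its gap took a share of 0.5061 of the range for Ptprc, 0.5795 for Cd74, 0.6543 for C1qa, 0.6092 for C1qb and 0.6521 for Lgals3. Vehicle animal 1 was the lowest of its group for C1qb, with a gap of 0.5293 of the range. Its level was 43.2 normalised reads of C1qb, where the vehicle median was 107.8. No interaction of the treatments passed for any of the 7 genes.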

How the results depend on the processing

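The count of 7 genes called for the combination against vehicle held in 10 of 11 alternative fits and was 6 with a filter at 2 log2 units, which removes Cd68 from the test. It was 5 to 7 when 1 animal was left out. For L-NAME against vehicle 2 were called when only these groups were fitted, a fit whose calls over all genes are not given here. For the combination against anti-Fx1A, in place of 4, 2 were called without a filter on low values and 7 with array weights (noisier libraries given less weight). Without animals 1, 10 and 25 (1 each of vehicle, anti-Fx1A and L-NAME) 7 were called, and 2 to 7 when 1 animal was left out. Calls over all genes in this comparison numbered 1668 to 2816 when 1 animal was left out. Those of its other fits are not given here, so these counts do not set the 7 genes apart from the rest. For the combination against L-NAME, in place of 1, 2 were called with only the groups compared, 5 with array weights, 6 without those 3 animals, 5 without anti-Fx1A animals 9 to 12 (added after the data were seen), 3 with a covariate for the reads held by the top 10 genes and 1 to 5 when 1 animal was left out. Within an animal, Cd68 to Ptprc passed in some of the fits that left out 1 animal, with differences at the lowest and highest adjusted p of -0.59 and -0.46 in the combination and -0.51 and -0.38 with L-NAME, as did B2m to Ptprc in the combination (-0.61 and -0.53), which was -0.76 on recovered reads. The causes were not tested beyond what each fit leaves out. No value past the threshold changed sign, while values near 0 that were not called did, among them Cd68 for the single treatments and, with anti-Fx1A, 3 genes under array weights, 4 without animals 1, 10 and 25 and 4 without animals 9 to 12. Correlations moved by at most 0.0125 when libraries were median-centred. Over all genes, the calls for anti-Fx1A against vehicle numbered 139, and 50 with only these groups, 624 with array weights, 259 with the covariate, 368 without animals 9 to 12 and 85 to 294 when 1 animal was left out. For the combination against L-NAME they numbered 151, and 95 without a filter, 990 with array weights, 1155 without the 3 animals, 338 with the covariate, 344 without animals 9 to 12 and 47 to 640 when 1 animal was left out. For anti-Fx1A against L-NAME they numbered 48, and 27 without a filter, 22 with only these groups, 85 with the covariate, 137 without animals 9 to 12 and as few as 20 with 1 animal left out. The interaction called 0 genes, and 3 with the stricter filter, 37 with array weights, 41 without the 3 animals, 4 with the covariate, 36 without animals 9 to 12 and up to 15 with 1 animal left out. With only the groups compared, the interaction could not be fitted, since it needs all 4 groups. No paired analysis was possible because the groups share no animal numbers. Depth limits Cd68 most, with 8 to 102 reads per library.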

Other observations

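The spread between animals of a group is given here as a description with no test. For Ptprc the coefficient of variation of normalised reads was 37.5% in the combination, 48.0% with anti-Fx1A and 41.4% with L-NAME, against 15.7% with vehicle. For Lgals3 it was 63.2%, 72.3% and 86.6% in the same treated groups, against 20.6% with vehicle. For Cd68 it was 24.4% in the combination, 90.8% with anti-Fx1A and 40.1% with L-NAME, against 47.7% with vehicle. The anti-Fx1A values rest on animal 10. Without it they were 24.9% for Ptprc, 18.4% for Lgals3 and 52.3% for Cd68, and over the 7 genes they ran from 18.4% to 52.3%, against 45.5% to 109.9% with it.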
